A study of Mus musculus with 17 samples.

Results

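The coatomer subunit genes of the COPI vesicle coat (Copa, Copb1, Copb2, Arcn1, Copg1, Copg2, Cope, Copz1 and Copz2) and the small GTPase gene Arf4 were examined in cultured mouse lung fibroblasts. The members were chosen by gene symbol, and all 10 were found, with 1 row each, among the 55421 genes of the deposited count table. Total RNA was sequenced from 17 cultures, each grown to passage 1 from the lungs of a mouse carrying a floxed Ephb4 gene and a tamoxifen-inducible Cre recombinase driven by the Col1a2 promoter (Ephb4 f/f;Col1a2-CreERT2). At 4 weeks of age, mice received either corn oil (Ephb4 control) or 4-hydroxytamoxifen at 1 mg per day for 5 days (Ephb4 CKO), so that the floxed allele and the Cre were shared by all groups and the 2 arms differed in tamoxifen as well as in Ephb4. At 6 weeks, bleomycin (1.2 U/kg), a drug that injures the lung and leads to fibrosis, or PBS was instilled, and lungs were taken on day 14. The libraries comprised Ephb4 control PBS (n = 4), Ephb4 control bleomycin (n = 4), Ephb4 CKO PBS (n = 5) and Ephb4 CKO bleomycin (n = 4). Libraries are numbered here within each group only to name them.

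Total counts ranged from 66540022 to 120554468 per library. Ephb4 itself was at 38.5 ± 21.3 CPM (counts scaled by library size; mean ± SD, n = 4) in Ephb4 control bleomycin and at 9.64 ± 3.70 CPM in Ephb4 CKO bleomycin. The ranges, 13.1 to 65.1 and 4.93 to 14.0 CPM, met at their ends, and the difference did not pass the adjusted edgeR test (adjusted p = 0.220). After PBS, Ephb4 was at 2.32 to 33.4 CPM in the controls and 4.01 to 23.6 CPM in the CKO cultures (log2 fold change -0.73 ± 0.72, adjusted p = 1.00), so that its level did not separate the labelled genotypes there, and Ephb4 control PBS 2 (4.00 CPM) and 4 (2.32 CPM) were among the lowest of all libraries. Of 14 fibroblast markers, 13 were abundant enough to test and none was at 0 in every library, yet the summed CPM of 18 macrophage markers exceeded that of the fibroblast markers in 16 of 17 cultures, the exception being Ephb4 control bleomycin 1. In 3 libraries (Ephb4 control bleomycin 2, Ephb4 CKO bleomycin 1 and Ephb4 CKO bleomycin 2), the X- and Y-linked genes went against the sex on the label. Of these, Ephb4 control bleomycin 2 had the lowest Ephb4 of its group (13.1 CPM). Ephb4 CKO bleomycin 1 had the highest of its group (14.0 CPM), so that the ranges met at these libraries. Whether the 3 libraries carry the right group labels was not tested.

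COPI-coated vesicles return proteins from the Golgi apparatus to the endoplasmic reticulum (ER) and carry cargo between Golgi cisternae. Their coat, coatomer, is a heptamer that is recruited whole to the membrane by GTP-bound Arf proteins. It has an outer layer of alpha-COP (Copa), beta'-COP (Copb2) and epsilon-COP (Cope) and an inner layer of beta-COP (Copb1), delta-COP (Arcn1), gamma-COP (Copg1 or Copg2) and zeta-COP (Copz1 or Copz2). Gamma and zeta each come in 2 forms encoded by paralogous genes that occupy the same position. Fibroblasts making matrix pass large amounts of procollagen through the ER and Golgi, and resident ER proteins that leave with this traffic are brought back in COPI vesicles.

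Promoter sequences (GRCm38.p6, RefSeq) were given for 9 of the 10 members and were searched on both strands for ER stress, cAMP response and core promoter motifs. The 7 letters CCACGTC, picked out after the sequences had been seen, occurred in 6 of the 9 (Arf4, Copb1, Copb2, Copg1, Copz1 and Copz2) against 2.42% of 32851 promoters of the same length. Because the letters were chosen from these same 9 promoters, their excess over that share is no evidence of enrichment. The promoters were not matched for GC content. The first 5 of these letters, CCACG, which form the core of the ER stress elements, occurred in 7 of the 9 against 32.8% of all promoters. Neither full ER stress element (ERSE, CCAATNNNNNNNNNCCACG, or ERSE-II, ATTGGNCCACG) was found in the 9, and they occurred in 0.119% and 0.0365% of promoters. The overlapping element TGACGTGG was found in Copb1 and Copb2 (0.676% of promoters), a cAMP response element (TGACGTCA) in Cope (1.79%), CCAAT in Arf4, Cope and Copz1 (37.4%), and TATAAA in none of the 9 (13.6%). A match describes only the letters in these windows. The 4 stretches in which CCACGTC, or its reverse complement in Copz2, ended before the start given in the promoter table are shown with the match in capitals, each 5′ to 3′ on the strand of its gene. Positions are counted from that start. The GENCODE gene models of Copb1 and Copb2 begin further upstream, so that their capitals lie within the gene by that annotation.
Copb1 (chr7:114254682-114254728, reverse strand, first capital at -28 from the start): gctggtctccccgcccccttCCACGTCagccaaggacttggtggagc
Copb2 (chr9:98563704-98563730, forward strand, first capital at -7): agagtcgcttcccggaagttCCACGTC
Copz2 (chr11:96849735-96849781, forward strand, first capital at -121): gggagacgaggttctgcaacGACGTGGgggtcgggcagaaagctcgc
Arf4 (chr14:26638011-26638057, forward strand, first capital at -103): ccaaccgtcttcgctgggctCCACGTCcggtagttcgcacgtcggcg

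The zeta-COP paralogs also host a pair of related microRNAs, Copz1 carrying Mir148b and Copz2 carrying Mir152 within the gene and on its strand. Their mature 3p strands share the seed, bases 2 to 8, shown in capitals.
mmu-miR-148b-3p (chr15:103285185-103285206): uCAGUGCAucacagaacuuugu
mmu-miR-152-3p (chr11:96850439-96850459): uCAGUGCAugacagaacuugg
The hairpin genes had 0 to 6 counts for Mir148b and 0 to 3 counts for Mir152 per library, at or near the floor of 3 counts, so the microRNAs could not be followed here while their host transcripts could.

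Levels of the 10 genes were compared with each other as CPM per kilobase of the longest principal transcript, the mean over all 17 libraries being given with its SD. Copa (84.6 ± 10.8) and Arf4 (81.6 ± 21.1) were at the top, and Copa exceeded Arf4 in 10 of 17 libraries, so that their order was not fixed. Copb2 followed at 67.8 ± 14.8. Copz1 (51.8 ± 11.3), Cope (51.5 ± 11.9) and Arcn1 (47.6 ± 7.90) lay within each other's spread, Copz1 exceeding Cope in 8 libraries and Cope exceeding Arcn1 in 10. Copb1 (38.1 ± 5.02) was above Copg1 (32.7 ± 9.36) in 16 libraries. The second paralogs were the least abundant members, with Copz2 at 15.6 ± 12.8 and Copg2 at 9.77 ± 1.60. With lengths taken as the union of all exons, an alternative chosen after the data were seen, Arf4 ranked above Copa and Copg2 above Copz2.

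The members differed in how much they varied between libraries. Copa and Copb1 were the steadiest, with 1.51-fold and 1.61-fold between the highest and the lowest library (CPM), and their SD on the log2 scale was higher than that of only 5.47% and 5.43% of the 10481 genes tested. Copg1 spanned 2.69-fold and Arf4 2.47-fold. Copz2 stood apart with 13.7-fold between its lowest library (3.05 CPM, Ephb4 CKO PBS 5) and its highest (41.6 CPM, Ephb4 control bleomycin 1). Copa, Copb2, Copg1, Copz2 and Arf4 all had their highest level in that same library, and Copg2 had its lowest there (24.9 CPM).

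**Figure D1:**
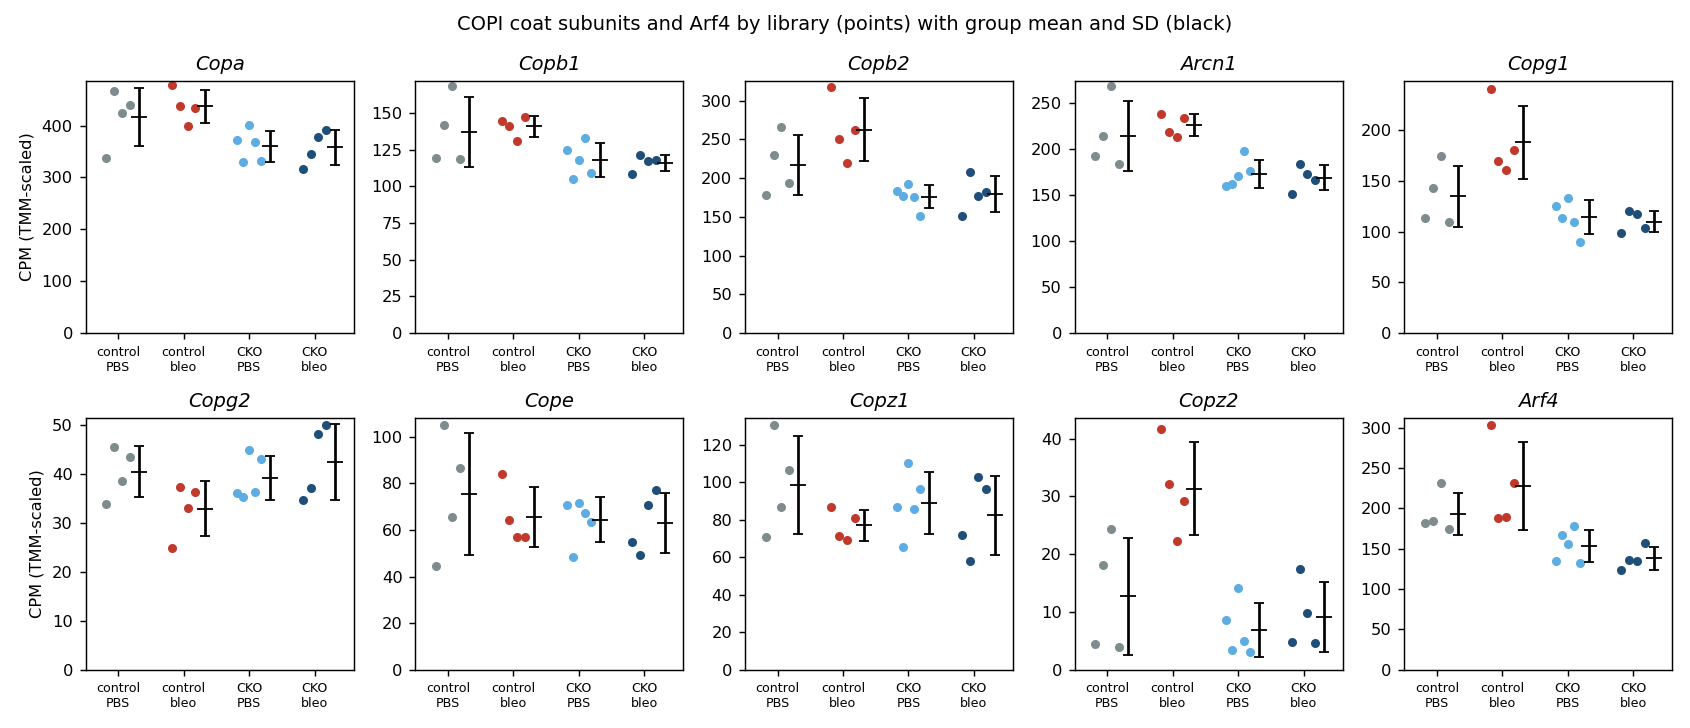
CPM (TMM-scaled, linear axes from 0) of each member in each of the 17 libraries (points, coloured by group) with the group mean and SD in black. Copg1, Arf4, Copb2, Arcn1, Copz2, Copa and Copb1 are lower in all 4 Ephb4 CKO bleomycin libraries than in all 4 Ephb4 control bleomycin libraries, while Copg2, Cope and Copz1 overlap.

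The comparison of Ephb4 CKO with Ephb4 control after bleomycin asked how the coat genes differed between cultures from CKO and control mice under fibrotic injury. Of the 10 members, 8 had a log2 fold change below 0 and 7 were lower in every CKO library than in every control library, with Copg1, Arf4 and Copz2 the furthest down and Copg2, the second gamma form, above 0. In the edgeR quasi-likelihood fit, no member passed an adjusted p of 0.05 (Benjamini-Hochberg, 10481 genes), and 0% of all genes did, the smallest adjusted p being 0.187. At an unadjusted p under 0.05, 5 members were lower and 1 was higher, where 20.2% of all genes (2119) met this rule, 9.18% lower and 11% higher. Groups that did not overlap occurred in 12.2% of all genes with CKO lower and in 11% with CKO higher. The median log2 fold change was -0.35 over the 10 members and 0.01 over all genes tested, with 49.3% of all genes below 0. DESeq2 run without a covariate called 399 genes at an adjusted p under 0.05, among them Arf4, Copg1, Copb2 and Arcn1, all lower. When the order of the table's columns, which form 2 sorted runs, was added as a covariate, it called 387, the same 4 members lower and Copg2 higher. limma voom called 0 genes, and with sample quality weights 4651, including 7 members, all lower. Arcn1, Arf4, Copb2 and Copg1 belong to a list that the study drew from these same libraries, so their direction is not independent evidence. The median log2 fold change was -0.64 over these 4 and -0.17 over the 6 that were not on it. Since the list divided the 10 by these same data, neither median is independent evidence.

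Among the inner-layer subunits, Copg1, which encodes the gamma subunit that binds Arf and cargo tails, had the smallest adjusted p of the coat. Copg1 was at 241, 170.0, 161 and 181 CPM in Ephb4 control bleomycin libraries 1 to 4 and at 98.3, 120.1, 117 and 104 CPM in Ephb4 CKO bleomycin libraries 1 to 4. The groups did not overlap, and the log2 fold change was -0.78 ± 0.19 (SE, adjusted p = 0.187), or 0.584-fold. It ranked 35 by p among the 10481 genes.

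Arcn1, the delta subunit, was at 237, 218, 213 and 234 CPM in the control libraries and at 151, 183, 173 and 167 CPM in the CKO libraries. Its groups were tight and separate, at 226 ± 11.7 and 169 ± 13.4 CPM (SD, n = 4 each), with a log2 fold change of -0.42 ± 0.14 (adjusted p = 0.210). Copb1, the beta subunit, was at 131 to 148 CPM in the controls and 108 to 121 CPM in the CKO cultures, again without overlap, and its log2 fold change was -0.28 ± 0.14 (adjusted p = 0.252).

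In the outer layer, Copb2, whose product binds dilysine retrieval signals, was at 317, 251, 219.9 and 262 CPM in the control libraries and at 151, 208, 177 and 182 CPM in the CKO libraries. The lowest control library was above the highest CKO library by a small margin, and the log2 fold change was -0.55 ± 0.17 (adjusted p = 0.197). Copa, its partner in the outer layer, was at 437 ± 32.3 CPM against 358 ± 33.7 CPM (SD, n = 4 each), without overlap and with a log2 fold change of -0.29 ± 0.15 (adjusted p = 0.267). Cope, the third outer subunit, was at 56.9 to 84.0 CPM in the controls and 49.4 to 77.0 CPM in the CKO cultures, with overlap and a log2 fold change of -0.06 ± 0.24 (adjusted p = 0.901), whose error takes in the value of Copa.

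Arf4, a class II Arf that acts at the ER-Golgi intermediate compartment and Golgi, was at 303, 188, 189.6 and 231 CPM in the control libraries and at 123, 136, 135 and 158 CPM in the CKO libraries. All 4 CKO libraries were below all 4 controls, and the log2 fold change was -0.72 ± 0.18 (adjusted p = 0.187), or 0.605-fold, at rank 46 by p.

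Copz2, the less abundant zeta form, showed the largest log2 fold change of the 10. It was at 41.6, 32.2, 22.3 and 29.2 CPM in the control libraries and at 4.71, 17.5, 9.75 and 4.58 CPM in the CKO libraries. The groups did not overlap, although among the CKO libraries Copz2 had the largest coefficient of variation of the 10 members (66.5%), and the log2 fold change was -1.78 ± 0.65 (adjusted p = 0.218). Copz2 passed the filter on low counts (over 10 CPM in at least 2 libraries) in 8 libraries, 4 of them Ephb4 control bleomycin, whereas each other member passed it in all 17. Copz1, the common zeta form, was at 69.5 to 86.6 CPM against 57.9 to 103 CPM, with a log2 fold change of 0.10 ± 0.22 (adjusted p = 0.809).

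Copg2, the second gamma form, lay on the other side of 0 from Copg1. It was at 24.9, 37.3, 33.0 and 36.3 CPM in the control libraries and at 34.5, 37.0, 48.2 and 49.9 CPM in the CKO libraries. The groups overlapped, and the log2 fold change was 0.37 ± 0.17 (adjusted p = 0.240).

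**Figure D2:**
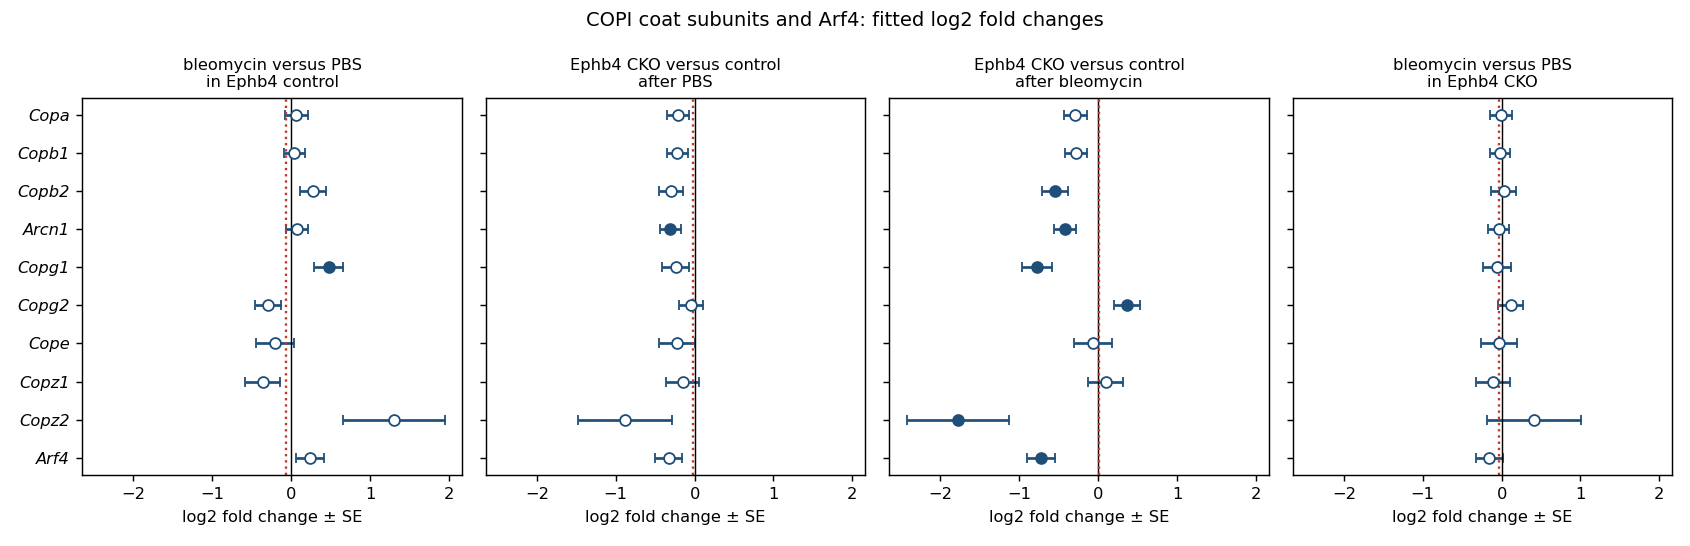
Fitted log2 fold change ± SE of each member in the 4 pairwise comparisons, with filled points for an unadjusted p under 0.05 and a dotted red line at the median of all genes tested. After bleomycin, Copz2 (-1.78), Copg1 (-0.78), Arf4 (-0.72), Copb2 (-0.55) and Arcn1 (-0.42) are filled below 0 and Copg2 (0.37) is filled above it. No adjusted p is under 0.05 in any panel.

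These differences were followed within subsets of the libraries. The runs of columns named above hold 8 and 9 libraries, each with 2 control and 2 CKO bleomycin libraries. The study's model held a batch number, but no label ties a library to a batch. Whether the runs of columns match those batches is not known. Within these runs the log2 difference was -0.67 and -0.86 for Copg1, -0.51 and -0.89 for Arf4, -0.51 and -0.58 for Copb2, -0.41 and -0.43 for Arcn1, -2.19 and -1.74 for Copz2 and 0.41 and 0.32 for Copg2. Cope (0.28 and -0.41) and Copz1 (0.40 and -0.27) changed sign between the runs. All 4 Ephb4 control bleomycin animals have numbers of the 12 series, as do 2 of the 4 CKO bleomycin animals. Within that series the log2 difference was -0.77 for Copg1, -0.79 for Arf4 and -1.75 for Copz2, and it was 0.14 with overlapping groups for Copg2. Its CKO libraries, Ephb4 CKO bleomycin 1 and 2, are also the CKO bleomycin libraries of the second run. In both, the sex-linked genes went against the label. In the first run, the CKO bleomycin libraries are of the 11 series and the controls of the 12 series, so the splits are not separate checks. Without the 3 libraries whose sex-linked genes went against the label, 5 members were lower and 1 was higher at an unadjusted p under 0.05, as with all libraries, and the median was -0.39, while 1682 of 10376 genes met this rule in either direction. That fit sets only Ephb4 CKO bleomycin 3 and 4, both of the 11 series, against controls of the 12 series. Genotype and number series cannot be told apart in it.

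The culture's content of marker transcripts moved with the same comparison. Of all genes in this comparison, 49.3% were below 0, 12.2% did not overlap with CKO lower and 11% did not overlap with CKO higher. All 13 fibroblast markers tested were below 0 in CKO relative to control after bleomycin, with a median of -2.47 (log2 fold change), and 10 of them did not overlap between groups. Their summed level was 6916 to 13189 CPM in Ephb4 control bleomycin and 299.8 to 2246 CPM in Ephb4 CKO bleomycin. All 18 macrophage markers were above 0, with a median of 1.13, and 7 of them did not overlap between groups. Their summed level was 1463 to 21147 CPM in the controls and 23614 to 44373 CPM in the CKO cultures. The summed smooth muscle markers were at 275 to 370 CPM and 3.24 to 219 CPM, while epithelial (183 to 1117 and 29.9 to 1207 CPM) and endothelial (50.1 to 165 and 30.5 to 62.5 CPM) markers overlapped, and none of the 5 lymphocyte markers was abundant enough to test. In cultures of mixed content, fewer cells of a type and less RNA per cell cannot be told apart. With a fibroblast marker score as a covariate, the log2 fold change was -0.77 for Copz2, -0.54 for Copg1, -0.69 for Arf4, -0.39 for Copb2, -0.27 for Arcn1 and -0.16 for Copb1, whereas Copa was at -0.32 and Cope at -0.31, further from 0 than without it. In that fit 2 members were lower at an unadjusted p under 0.05, and 417 of all 10481 genes met this rule in either direction, against 2119 without the covariate. With a macrophage marker score it was -1.32 for Copz2, -0.50 for Copg1, -0.43 for Arf4 and -0.35 for both Copb2 and Arcn1, and 4 members were lower by that rule, which 436 of all genes met in either direction. The part of culture content in the members' differences was not tested beyond these fits.

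**Figure D3:**
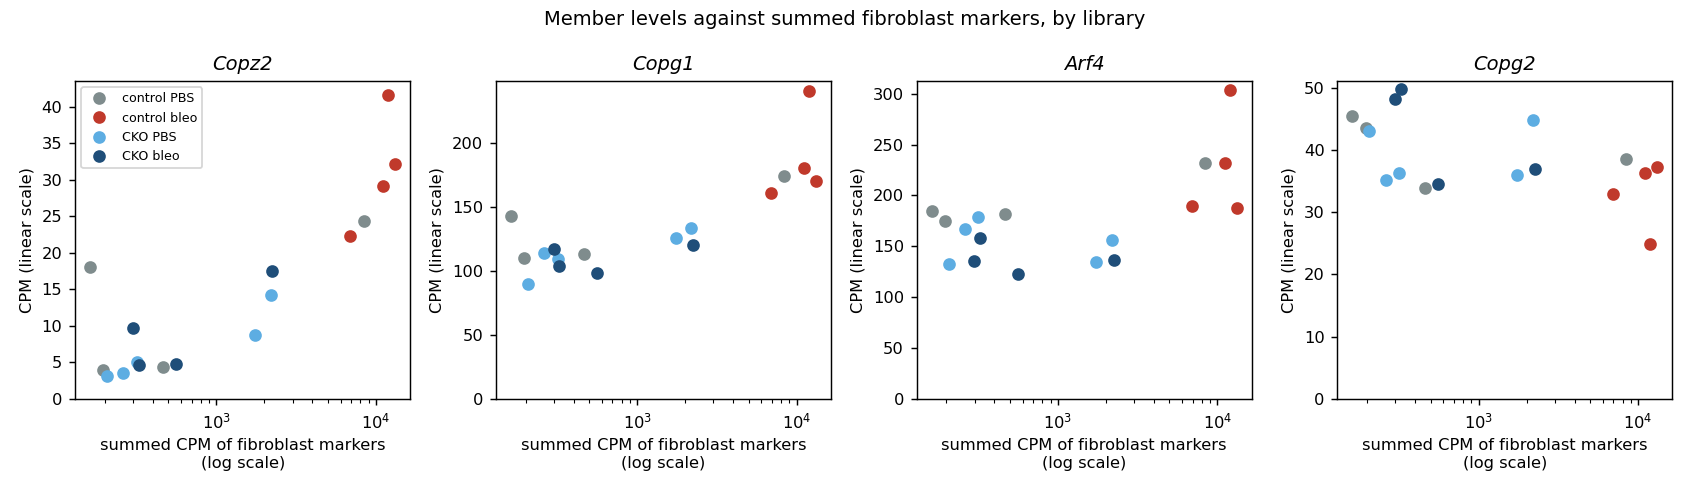
CPM (linear axis) of Copz2, Copg1, Arf4 and Copg2 in each of the 17 libraries against the summed CPM of the fibroblast markers (log axis), coloured by group. The 4 Ephb4 control bleomycin libraries and Ephb4 control PBS 3 lie furthest to the right, at 6916 to 13189 CPM of fibroblast markers, and have the 5 highest Copz2 levels (22.3 to 41.6 CPM).

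Among PBS cultures, Ephb4 control PBS 3 was the richest in fibroblast markers. These summed to 8381 CPM in it, against 162 to 463 CPM in the other Ephb4 control PBS libraries and 206 to 2188 CPM in Ephb4 CKO PBS. It had the highest level of its group for Copz2 (24.4 CPM), Copg1 (174 CPM), Copb1 (169 CPM), Copb2 (266 CPM), Arcn1 (268 CPM) and Arf4 (232 CPM). Ephb4 control PBS 2, in contrast, had 18.1 CPM of Copz2 beside fibroblast markers of 162 CPM. That library had the highest Copa (467 CPM), Cope (105 CPM), Copz1 (131 CPM) and Copg2 (45.5 CPM) of the group.

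The balance between the paralogs was measured within each library as a log2 ratio of counts, which does not depend on the normalization between libraries. Copz2 made up the largest mean share of zeta-COP transcripts, and Copg2 the smallest mean share of gamma-COP transcripts, in Ephb4 control bleomycin. Per length, Copz2 made up 46.4%, 44.9%, 36.6% and 39.4% of the zeta pair in Ephb4 control bleomycin libraries 1 to 4 and 10.6%, 35.3%, 14.6% and 7.87% in Ephb4 CKO bleomycin libraries 1 to 4. It made up 10.1%, 19.9%, 33.6% and 6.13% in Ephb4 control PBS and 5.38% to 18.8% in Ephb4 CKO PBS. Every control bleomycin library was thus above every library of the other groups, Ephb4 CKO bleomycin 2 coming closest. Copg2 made up 9.75%, 18.7%, 17.6% and 17.3% of the gamma pair in Ephb4 control bleomycin and 26.9%, 24.4%, 30.0% and 33.4% in Ephb4 CKO bleomycin, with 18.8% to 29.3% in Ephb4 control PBS and 23.1% to 33.4% in Ephb4 CKO PBS.

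In Ephb4 CKO against control after bleomycin, the mean log2 ratio of Copz2 to Copz1 was -3.36 ± 1.16 against -1.33 ± 0.27 (SD, n = 4 each), a difference of -2.04, and that of Copg2 to Copg1 was -1.39 ± 0.28 against -2.52 ± 0.51, a difference of 1.13. Bleomycin against PBS in Ephb4 control gave a difference of 2.04 for Copz2 to Copz1 and -0.79 for Copg2 to Copg1. In each of these 4 comparisons the groups did not overlap, and the two-sided exact permutation test gave p = 0.0286, the smallest that 4 against 4 libraries allow, and an adjusted p of 0.0571 over the 8 ratio comparisons. They share the Ephb4 control bleomycin libraries and are not independent of each other. For Copg2 to Copg1 in the controls, the separation was narrow. It lay between -2.19 in Ephb4 control bleomycin 2 and -2.18 in Ephb4 control PBS 3, the PBS culture richest in fibroblast markers. Whether the ratios follow culture content was not tested. The other 4 comparisons overlapped, with differences of -0.55 (Copz2 to Copz1) and 0.18 (Copg2 to Copg1) for CKO against control after PBS and of 0.55 and 0.15 for bleomycin against PBS in Ephb4 CKO, and with exact permutation p from 0.397 to 0.476. Summed per length over both forms, gamma-COP transcripts were at 47.2 to 64.5 CPM per kilobase in Ephb4 control bleomycin and 32.5 to 40.5 in Ephb4 CKO bleomycin, without overlap, whereas the zeta sums overlapped at 65.4 to 96.4 and 47.9 to 72.0.

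**Figure D4:**
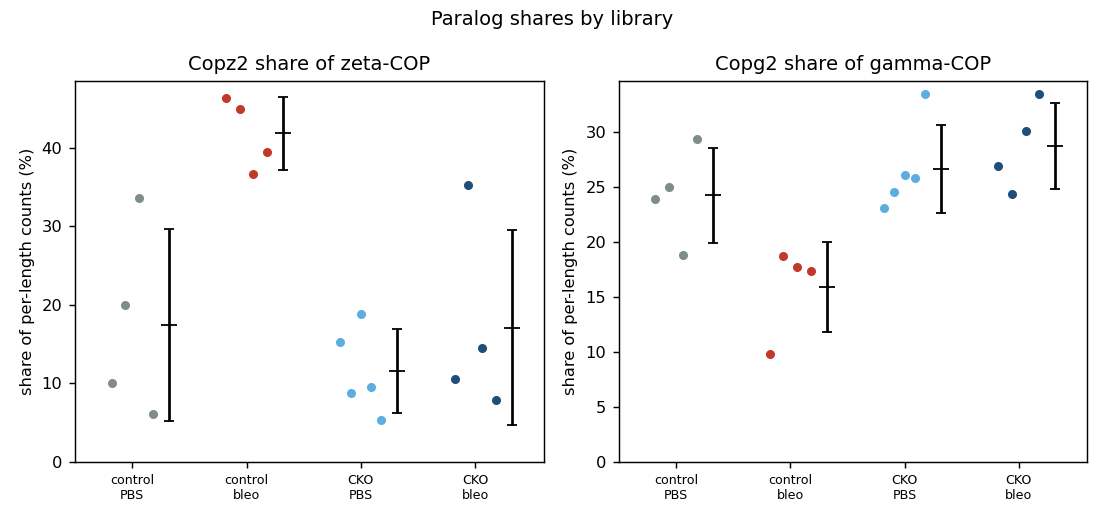
Share (%) of Copz2 in the summed per-length counts of Copz1 and Copz2 (left) and of Copg2 in those of Copg1 and Copg2 (right) in each library, by group, with the mean and SD in black. Ephb4 control bleomycin has the highest zeta shares (36.6% to 46.4%) and the lowest gamma shares (9.75% to 18.7%).

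Bleomycin was compared with PBS in Ephb4 control cultures to see how the coat genes differed after injury in mice that had received corn oil. No member passed the adjusted test (0% of 10481 genes), 7 of 10 had a log2 fold change above 0, and the median was 0.07 where that of all genes was -0.06 and 55.5% of all genes were below 0. Copg1 alone had an unadjusted p under 0.05, a rule met by 14.3% of all genes, 6.28% higher and 7.98% lower. It was at 113, 143, 174 and 109.7 CPM in Ephb4 control PBS against the 161 to 241 CPM given above for bleomycin, with overlapping groups and a log2 fold change of 0.48 ± 0.19 (adjusted p = 0.320). The median of the members depended on single libraries, at 0.0028 without Ephb4 control PBS 1 and 0.22 without Ephb4 control PBS 3. Without PBS 3, 3 members were higher at an unadjusted p under 0.05 (2558 of 10313 genes met this rule in either direction). Without PBS 1, PBS 4 or Ephb4 control bleomycin 1 none was higher by it, and without PBS 1, 1 member was lower. The share of all genes in these last fits is not given here. Copz2 had the largest fold change, 1.31 ± 0.64 (adjusted p = 0.367), from 4.39, 18.1, 24.4 and 3.87 CPM in Ephb4 control PBS. Of these, Ephb4 control PBS 3 (24.4 CPM) lay within the bleomycin range of 22.3 to 41.6 CPM, and the other 3 were below every bleomycin library. Copb2 (0.27 ± 0.17) and Arf4 (0.24 ± 0.18) were above 0, Copa, Copb1 and Arcn1 lay between 0.04 and 0.07, and Copz1 (-0.36 ± 0.22), Copg2 (-0.30 ± 0.17) and Cope (-0.20 ± 0.24) were below 0, all with adjusted p of 0.414 or above. No member separated the groups, where 5.72% of all genes did so with bleomycin higher and 3.2% with it lower. DESeq2 called 166 genes here without a covariate and 231 with the runs of columns, limma voom 0 and 46 with quality weights, and none of these fits called a member.

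After PBS, all 10 members had a log2 fold change below 0 in Ephb4 CKO relative to control, with a median of -0.23 beside -0.02 over all genes, of which 53.6% were below 0. The fold changes ran from -0.05 ± 0.16 for Copg2 to -0.88 ± 0.60 for Copz2, Arf4 was at -0.33 ± 0.17 and Arcn1 at -0.31 ± 0.14, and every adjusted p was 1.00. The Copz2 value was -0.35 without Ephb4 control PBS 3 and -1.33 without Ephb4 CKO PBS 3. Arcn1 alone had an unadjusted p under 0.05, a rule met by 1.99% of all genes (209), 0.563% lower and 1.43% higher, and 0% of genes passed the adjusted test. No member met the unadjusted rule when Ephb4 control PBS 2 or 3 or Ephb4 CKO PBS 1, 2 or 5 was left out, and 2 did without Ephb4 control PBS 1, Ephb4 control bleomycin 1 or Ephb4 CKO PBS 4. The share of all genes in those fits is not given here, so these counts show only that the number moved with single libraries. The groups overlapped for every member, where 0.219% of all genes did not overlap with CKO lower and 0.0286% with CKO higher. Within the 2 runs of columns, the differences were -0.53 and 0.06 for Copg1, -0.53 and -0.16 for Arf4 and -1.67 and 0.37 for Copz2. Ephb4 control PBS 3, the PBS culture richest in fibroblast markers, is in the first of these runs. Among animals of the 12 series, 1 control and 2 CKO, 7 of the 10 differences were above 0.

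In Ephb4 CKO cultures, no difference between bleomycin and PBS passed the test for any coat gene. Log2 fold changes ran from -0.16 ± 0.17 for Arf4 to 0.41 ± 0.60 for Copz2, with a median of -0.03 that equalled the -0.03 of all genes, and 55.8% of all genes were below 0. No member had an unadjusted p under 0.05, a rule met by 0.964% of all genes (101), 0.248% higher and 0.716% lower, and all members overlapped, where 0.0763% of all genes did not overlap with bleomycin higher and 0.00954% with it lower. Copg1, for example, was at 126, 114, 133, 109.1 and 89.7 CPM in Ephb4 CKO PBS and at 98.3 to 120.1 CPM in Ephb4 CKO bleomycin. The interaction of genotype and bleomycin, which tests whether the response to bleomycin differed between genotypes, was -0.53 ± 0.26 for Copg1, -0.39 ± 0.25 for Arf4, -0.90 ± 0.88 for Copz2 and 0.41 ± 0.23 for Copg2. All members had an adjusted p of 0.916 or above and none an unadjusted p under 0.05, a rule met by 3.46% of all genes (363), 1.89% above 0 and 1.57% below it, so that a difference in response was not shown for any member. This count rests on single libraries, since 2 members, both below 0, met the unadjusted rule when Ephb4 control PBS 3 was left out, as did 1209 of 10313 genes, with no adjusted p under 0.05. DESeq2 without a covariate and limma voom each gave 1 member below 0 by the unadjusted rule, where 545 and 300 of all 10481 genes met it. DESeq2 with the runs of columns gave 1 below 0 and 1 above it, where 507 genes met it. With weighted voom 1 member below 0 met it, as did 437 of all 10481 genes. With genes over 1 CPM in at least 4 libraries 1 member below 0 met it (505 of 14821 genes). Without a filter on low counts 1 member below 0 did so (1338 of 35414 genes). In some further settings 1 member met it, below or above 0, and the share of all genes there is not given here.

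The rest of the retrograde pathway was described from lists of its parts in Ephb4 CKO against control after bleomycin. Of all genes in this comparison, 9.18% were lower and 11% higher at an unadjusted p under 0.05, and 49.3% were below 0. Of the other Arf GTPases, 4 of 5 had a fold change above 0, unlike Arf4: Arf3 was at 0.42 ± 0.19, Arf5 at 0.25 ± 0.23 and Arf6 at 0.21 ± 0.19, and Arf1, the Arf most closely tied to coatomer recruitment, was at -0.16 ± 0.19 (adjusted p = 0.621). Among regulators of Arf, 2 of 6 had an unadjusted p under 0.05, both lower. These were Gbf1 (-0.45 ± 0.17), the exchange factor that activates Arf at the early Golgi, and Arfgap1 (-0.61 ± 0.26), which stimulates GTP hydrolysis on the coat. Arfgap2 (0.26 ± 0.19) and Arfgap3 (-0.28 ± 0.24), which also act on Arf at the Golgi, did not meet this rule, and Arfgef1, which acts at the trans-Golgi, was the highest of the 6 (0.86 ± 0.41).

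Of the tether and SNARE proteins that receive COPI vesicles at the ER, 3 of 7 were lower at an unadjusted p under 0.05 and without overlap, namely Rint1 (-0.66 ± 0.24), Nbas (-0.45 ± 0.18) and Sec22b (-0.44 ± 0.19), and Bnip1 was highest at 0.33 ± 0.26. Over all genes, 12.2% did not overlap with CKO lower, and 9.18% were lower at an unadjusted p under 0.05. Cargo and receptors retrieved by COPI had a median of -0.40 over 10 genes, of which 5 were lower by this rule and none higher. The KDEL receptors, which bind escaped ER residents for return, were all among them, with Kdelr3 at -2.87 ± 1.12, Kdelr2 at -1.40 ± 0.28 (adjusted p = 0.187) and Kdelr1 at -0.55 ± 0.18, together with the cargo receptor gene Surf4 (-0.61 ± 0.21) and Tmed9 (-0.53 ± 0.20). Kdelr2 is on the list that the study drew from these same libraries, so its direction is not independent evidence. Tmed9 belongs to the p24 family, of which Tmed2 (-0.17 ± 0.19) and Tmed10 (0.37 ± 0.25) did not meet the rule. All 8 subunits of the COG complex, which tethers vesicles within the Golgi, were above 0, from 0.01 ± 0.12 for Cog4 to 0.62 ± 0.20 for Cog7.

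The other coats served as a setting for COPI. In COPII, which carries cargo forward from the ER, 5 of 12 genes were lower at an unadjusted p under 0.05 (9.18% of all genes) and none was higher (11%): Sec23a (-1.55 ± 0.40), Sec24d (-1.32 ± 0.34), Sec31a (-1.11 ± 0.22), Sec13 (-0.73 ± 0.20) and Sar1a (-0.72 ± 0.19). The list's median of -0.07 hides this split, since 6 genes were above 0, up to 0.29 ± 0.30 for Sec24a. Sec23a and Sec24d are on the study's own list, and Sec31a and Sec13 on its panel of genes found lower in these libraries. Their direction is therefore not independent evidence. Clathrin and its adaptors had a median of 0.19 over 17 genes, with 3 higher and 1 lower by the same rule. They ran from -0.57 ± 0.19 for Ap2a2 to 0.82 ± 0.26 for Ap3s1, with the clathrin heavy chain Cltc at 0.18 ± 0.20 and Ap1g1 at 0.19 ± 0.12. No gene of these lists passed the adjusted test.

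**Figure D5:**
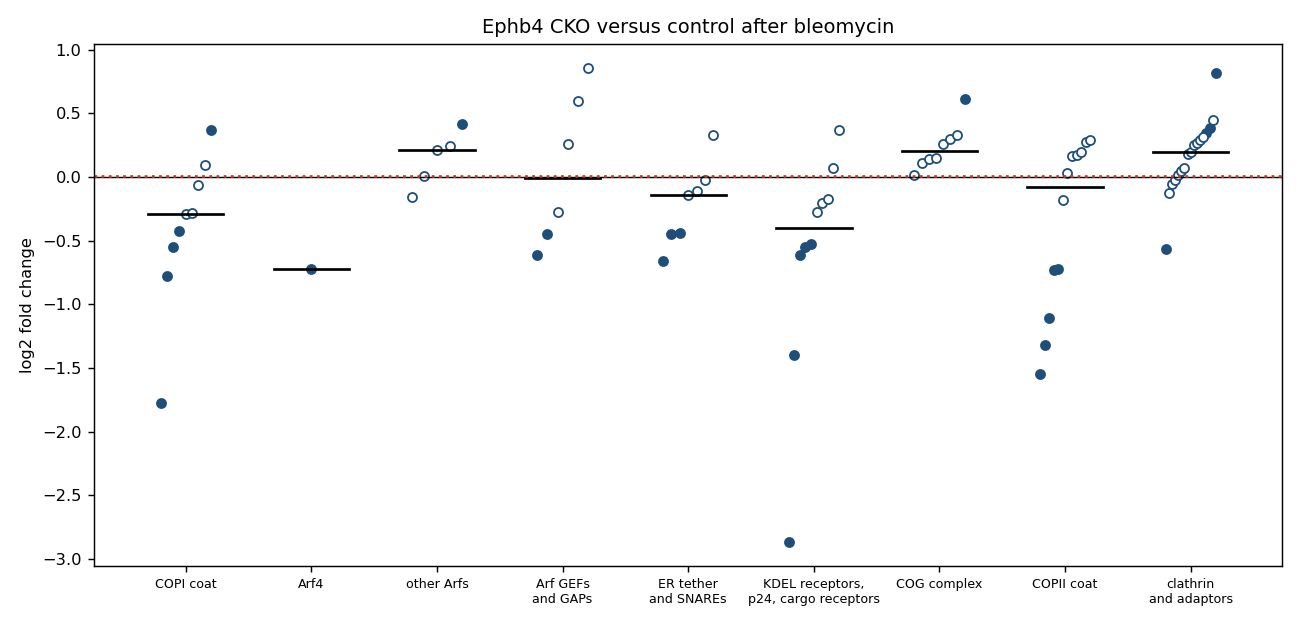
Log2 fold change of every tested gene in Ephb4 CKO against control after bleomycin, by list, with filled points for an unadjusted p under 0.05, a black bar at each list's median and a dotted red line at the median of all genes (0.01). The COPI coat has a median of -0.29, the COG complex 0.21 and clathrin with its adaptors 0.19.

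Several members overlap other genes on the opposite strand. The libraries were made with a stranded kit and aligned in strand-specific mode, so such reads could be assigned by strand, but how completely this separated the overlapping genes was not tested. Copa (chr1:172082529-172122330, GRCm38) shares 195 exon bases with Ncstn (6922 to 19950 counts per library), Copg2 (chr6:30747554-30896794) shares 912 with Mest (13 to 1050 counts, against 2080 to 4379 for Copg2) and Arf4 (chr14:26638074-26665084) shares 527 with Pde12 (1308 to 2855 counts). Copg1 overlaps the antisense transcript Gm26636 by 941 bases, but this had 0 to 2 counts per library.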

How the data were processed

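Per the labels and the study's methods, total RNA-Seq reads (75 bp, paired end) were trimmed with cutadapt 1.18 (as in the submitters' processing notes), aligned to GRCm38 with HISAT2 2.1.0 in strand-specific mode and quantified against a reference annotation with StringTie by the authors, who deposited whole-number counts per gene that StringTie's script derives from coverage and transcript length (unit: counts, not normalized). From these counts, genes over 10 CPM in at least 2 libraries were kept (10481, the filter the study describes), TMM factors were computed on them, and edgeR 4.0.16 (R 4.3.3) fitted quasi-likelihood models with 1 mean per group over all 17 libraries. P-values were adjusted over all 10481 genes by the Benjamini-Hochberg method, with a threshold of 0.05. SEs are the log2 fold change divided by the root of F. CPM values are TMM-scaled. Paralog ratios (0.5 added to each count) were compared by exact permutation over libraries. The fit was also run on counts simulated without differences in culture content, which cannot show how it performs on mixed cultures. limma 3.58.1 and DESeq2 1.42.0 were alternatives. Levels per length used GENCODE M21 principal transcripts, and 55240 gene IDs matched that annotation. Total counts were 66540022 to 120554468 per library, and the floor of 3 counts covers counting error only. Each library carries a label of its own, made of an animal number and a letter for sex.

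Named genes were all members, a set of pathway genes (Arf1, Arf3, Arf5, Arf6, Gbf1, Arfgap1, Arfgap2, Arfgap3, Sec22b, Nbas, Kdelr2, Kdelr3, Tmed2, Tmed10, Sec23a, Sec24d, Cltc and Ap1g1), the lowest and highest gene of each list, Ephb4 and genes overlapping a member. 1 further gene of this rule was left out of its list and is not reported here. Sec31a, Sec13, Sar1a, Kdelr1, Surf4 and Tmed9 were named after their values were seen, to spell out counts. The members and lists were chosen with earlier results of these data known. Table columns were matched to samples by name, and 0 were left unmatched.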

Additional observations from a re-analysis of the deposited data

Results flagged for a closer look

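In Ephb4 control bleomycin, the within-library log2 ratio of Copg2 to Copg1 was -3.27 in library 1, far below the other 3 libraries of the group, which lay between -2.32 and -2.19. This was the only group of the 48 examined (10 members and 2 ratios in 4 groups) in which the lowest or highest library stood off by the distance required, and chance flags about 1 in 20 groups. The same library had the highest Copg1 (241 CPM), Arf4 (303 CPM), Copb2 (317 CPM) and Copz2 (41.6 CPM) levels of all 17 and the lowest summed macrophage markers (1463 CPM). Without it, the difference in this ratio between Ephb4 CKO and control after bleomycin was 0.88 in place of 1.13.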

How the results depend on the processing

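No paired analysis was possible because the labels carry no replicate numbers shared between groups. In Ephb4 CKO against control after bleomycin, Copg1, Arf4, Copb2, Arcn1, Copa, Copb1 and Copz2 were below 0, and Copg2 above it, in all 17 alternative settings and with each of the 17 libraries left out, while Cope and Copz1 changed sign. The number of genes called was 0 in each comparison and depended on the tool, and the cause was not tested. DESeq2 without a covariate called 166 genes (bleomycin against PBS, control), 1 (CKO against control, PBS), 399 (CKO against control, bleomycin) and 1 (bleomycin against PBS, CKO). With the runs of columns as covariate it called 231, 387 (CKO against control, bleomycin), 1 (bleomycin against PBS, CKO) and 1 (interaction). voom with quality weights called 46 and 4651, with Ephb4 control bleomycin 3 and 4 weighted 8.25 and 7.20 and Ephb4 control bleomycin 1 weighted 0.236. Animals of series 12 alone gave 3 for bleomycin against PBS in CKO. Leaving out single libraries gave 0 to 1 genes in CKO against control after bleomycin (1 without Ephb4 control bleomycin 2) and 0 to 2 in bleomycin against PBS in control (2 without Ephb4 CKO bleomycin 2). DESeq2 and weighted voom together gave 16 member calls, all in CKO against control after bleomycin. Log2 fold changes that took the opposite sign, none of them past the adjusted threshold, follow by setting. With weighted voom, CKO against control gave Copg2 0.034, Cope 0.081 and Copz1 0.0093 after PBS and Cope 0.0053 after bleomycin, bleomycin against PBS in CKO gave Copb2 -0.096 and Copg2 -0.032, and the interaction gave Cope -0.075. Without a filter on low counts, bleomycin against PBS in CKO gave Copa 0.021 and Copb1 0.0057, and with only the groups compared it gave Copa 0.0032 (a setting that could not be run for the interaction). With the number series as covariate, bleomycin against PBS in control gave Cope 0.19 and Copz1 0.048, CKO against control gave Copg2 0.0070 after PBS and Copz1 -0.19 after bleomycin, bleomycin against PBS in CKO gave Copa 0.0056, and the interaction gave Cope -0.20 and Copz1 -0.13. With the fibroblast score, bleomycin against PBS in control gave Copb1 -0.095, Arcn1 -0.089 and Cope 0.091, CKO against control after bleomycin gave Copz1 -0.080, bleomycin against PBS in CKO gave Copb2 -0.0080, and the interaction gave Copb1 0.046, Arcn1 0.016, Cope -0.097 and Copz2 0.070. With the macrophage score, CKO against control after bleomycin gave Cope 0.0033. Without the 3 libraries whose sex-linked genes went against the label, it gave Cope 0.12, and bleomycin against PBS in CKO gave Copa 0.061, Copb2 -0.0072, Cope 0.16 and Copz1 0.13. With series 12 alone, bleomycin against PBS in control gave Cope 0.58 and Copz1 0.14. CKO against control after PBS gave Copa 0.091, Copb2 0.052, Copg1 0.12, Copg2 0.11, Cope 0.46, Copz1 0.14 and Copz2 0.51, with ratio differences of 0.23 (Copz2 to Copz1) and -0.0039 (Copg2 to Copg1). CKO against control after bleomycin gave Copz1 -0.23, bleomycin against PBS in CKO gave Copb2 -0.0095 and Arcn1 0.057, and the interaction gave Cope -0.78 and Copz1 -0.38.

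Leaving out single libraries, bleomycin against PBS in control ranged for Copa from -0.021 to 0.15, for Copb1 from -0.022 to 0.20 and for Cope from -0.39 to 0.024. CKO against control after PBS ranged for Copg2 from -0.12 to 0.019 and for Copz1 from -0.28 to 0.018, and after bleomycin for Cope from -0.17 to 0.045 and for Copz1 from -0.030 to 0.23. Bleomycin against PBS in CKO ranged for Copa from -0.056 to 0.045, for Copb1 from -0.060 to 0.024, for Cope from -0.14 to 0.068, for Arcn1 from -0.081 to 0.013, for Copb2 from -0.052 to 0.10, for Copz1 from -0.24 to 0.026 and for Copz2 from -0.12 to 0.85. The interaction ranged for Copa from -0.16 to 0.011, for Cope from -0.060 to 0.35 and for Copb1 from -0.22 to 0.00033.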
